A study of Mus musculus with 44 samples.

Results

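The comparison set astrocytes carrying human APOE3 in place of mouse Apoe (APOE33) against astrocytes with unedited mouse Apoe (wild type). It used 12 of the 44 RNA-seq libraries of the series, 6 of each genotype, chosen by their titles as the 6 APOE33 and the 6 wild-type astrocyte libraries. The cells were primary astrocytes purified from mice and grown, untreated, in culture media made for human cells; APOE33 has 4 female and 2 male libraries, and wild type has 3 of each. The other libraries are APOE44 astrocytes (human APOE4, 6 libraries), Apoe knock-out astrocytes (KO, 4 libraries) and microglia of the same 4 genotypes. All 6 wild-type libraries are tagged batch 2 and all 6 APOE33, 6 APOE44 and 4 KO astrocyte libraries batch 1, so genotype and batch coincide. A difference between APOE33 and wild type cannot be told apart from a difference between the batches. The sources used here do not give strain, age, how the APOE alleles were made or whether each replicate came from its own animal or culture, so p-values measure only the spread between these libraries. The labels disagree on APOE33 replicate 1: its genotype field reads WT, but the title names it APOE33 and the batch is that of the APOE33 libraries. It was counted as APOE33 by its title.

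Apolipoprotein E is a secreted lipid carrier made mainly by astrocytes in the brain, and by microglia when they are activated. It takes up cholesterol and phospholipid exported by ABCA1 and ABCG1 and delivers them to cells through lipoprotein receptors such as LRP1. Cholesterol synthesis and uptake are governed by SREBP transcription factors, which INSIG1 holds back when sterols are plentiful, and export is governed by the LXR receptors, which sense oxysterols. In people APOE3 is the common allele; the mouse has a single form of Apoe, so the contrast is one of species and of allele.

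Astrocyte identity was examined on 20 astrocyte markers, all of which passed the low-count filter. Gfap, the intermediate filament of astrocytes, ran from 4622 to 5762 CPM (median 5169) in wild type and from 4494 to 7639 CPM (median 6908) in APOE33, where CPM is the count scaled to the TMM-normalised library size. Slc1a3, a glutamate transporter, ran from 1288 to 1474 CPM (median 1369) and from 1071 to 1467 CPM (median 1250), and Aqp4, the water channel of astrocyte endfeet, from 639 to 793 CPM (median 735) and from 609 to 819.5 CPM (median 721). These genes are abundant examples. Of the 20 markers 8 fell and 5 rose in APOE33, with Glul, Slc1a2, Ntsr2 and Gjb6 among those that fell. Slc7a10 was near the floor, with medians of 0.20 CPM in wild type and 0.08 CPM in APOE33. Total counts per library were 83239599 to 129273661 in wild type and 97175787 to 117667286 in APOE33, and RNA integrity numbers were 9.3 to 9.5 and 9.1 to 9.7. APOE33 replicates 4 and 6 stood apart from the other 4: among genes with counts from 1 to 9, 75.5% and 74.9% of their counts were even, against 65.7% to 66.6% in APOE33 replicates 1, 2, 3 and 5 and 65.9% to 68.2% in wild type. APOE44 replicates 1, 5 and 6 had the same feature (73.6% to 75.1%), and no KO library had it (62.4% to 65.4%). These 5 libraries are the ones called high in even share hereafter.

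Of 21287 genes tested, 8312 (39%) were called different between APOE33 and wild-type astrocytes, 4285 (20.1%) higher and 4027 (18.9%) lower in APOE33 (edgeR quasi-likelihood test over all 22 astrocyte libraries, with sex as a covariate, Benjamini-Hochberg adjusted p under 0.05). Most of the differences were small: the median absolute log2 difference of the called genes was 0.364, and 5153 of them were under 0.5. At least 2-fold, 1486 genes (6.98%) were called, 347 (1.63%) higher and 1139 (5.35%) lower. With upper-quartile scaling in place of TMM, 3143 genes were called higher and 5287 lower, so that 37.3% of calls were higher where TMM gave 51.6%, and the median over all genes tested moved from -0.02 to -0.08. On the first principal component of all 22 astrocyte libraries (25.7% of the variance) wild type lay between -62.5 and -58.0, and APOE33 replicates 4 and 6 lay at 10.5 and 9.3 with the other 4 between 16.7 and 32.7. Counts of list members are read against the 20.1% and 18.9% of all genes called in each direction. Up to 3 members of each list, those of smallest adjusted p, were named by rule, and further members were chosen as examples after their values were seen. In genes picked so, groups without overlap follow largely from the choice. The share of all genes tested without overlap was not computed.

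**Figure D1:**
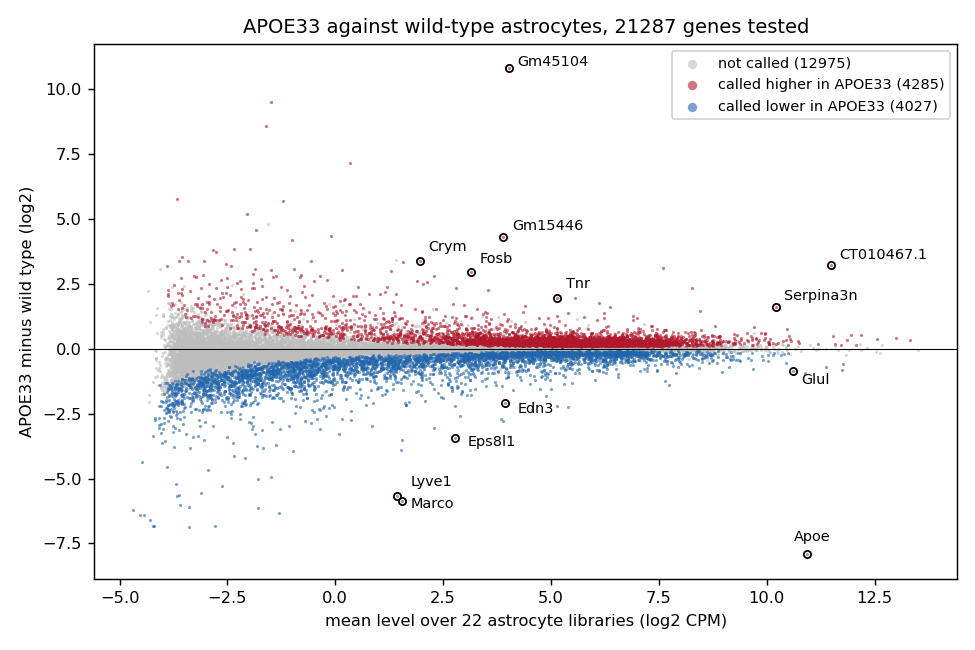
Each point is 1 of the 21287 genes tested, with its mean level over 22 astrocyte libraries (log2 CPM, x axis) against the log2 difference APOE33 minus wild type (y axis). The 4285 genes called higher are red, the 4027 called lower blue and the rest grey; circles mark named genes, with Apoe at -7.93 as the lowest point and Gm45104 at 10.80 as the highest.

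Apoe checked the genotypes. It lies on chromosome 7 (19696109 to 19699188, GRCm38), ran from 6104 to 7743 CPM (median 7223) in wild type and from 23.5 to 36.9 CPM (median 26.7) in APOE33, and fell by 7.93 on the log2 scale (SE 0.16, edgeR adjusted p = 1.63e-19). The 2 groups did not overlap, and replicate 1, the library with the contrary tag, stood at 25.0 CPM. APOE44 stood at 29.4 ± 5.11 CPM (SD, n = 6) and KO at 13.3 ± 1.84 CPM (SD, n = 4). The count table of mouse genes holds no entry for human APOE, so the APOE33 value covers only reads assigned to the mouse gene and says nothing of how much human APOE3 was made.

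Transcripts of cholesterol synthesis enzymes were often lower in APOE33. Of the 20 enzymes from acetyl-CoA to cholesterol, 13 (65%, against 18.9% of all genes) fell and none rose, by 0.17 to 0.69 on the log2 scale, and the median of the 20 was -0.24 where that of all genes was -0.02. Hmgcs1, which makes HMG-CoA, ran from 176 to 221 CPM (median 190) in wild type and from 137 to 155 CPM (median 154) in APOE33 and fell by 0.36 on the log2 scale (SE 0.07, edgeR adjusted p = 0.000251). The groups did not overlap. Idi1, an isomerase that supplies isoprenoid units, fell the most, from 25.3 ± 2.34 to 15.6 ± 1.33 CPM (SD, n = 6 each; log2 -0.69, SE 0.08, edgeR adjusted p = 1.17e-06). Lss, which closes the sterol rings, fell by 0.29 and Sqle, which acts just before it, by 0.17. None of the 13 fell 2-fold. The count was again 13 of 20 without the 5 libraries of high even share and 8 of 20 when APOE33 was represented by replicates 4 and 6 alone. Side by side with the other genotypes of batch 1, measured against the same wild-type libraries, the list's median was -0.24 in APOE33, -0.39 in APOE44 and -0.55 in KO.

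The regulators of the pathway moved both ways. Insig1, the sterol-sensitive brake on SREBP, fell from 212 ± 21.4 to 118 ± 13.9 CPM (SD, n = 6 each; log2 -0.85, SE 0.10, edgeR adjusted p = 8.34e-07), with wild type from 186 to 243 CPM (median 213) and APOE33 from 98.9 to 132 CPM (median 121). Stard4, which carries cholesterol between membranes, fell by 0.46. In contrast Srebf1, whose product drives fatty acid synthesis above all, rose from 141 ± 9.50 to 227 ± 23.5 CPM (log2 0.70, SE 0.07, edgeR adjusted p = 7.51e-08). Lrp1, a large receptor that takes up ApoE, rose by 0.39 on the log2 scale (SE 0.08, edgeR adjusted p = 0.000519), but its ranges overlapped, since wild type ran from 741 to 913 CPM (median 813) and APOE33 from 879.9 to 1339 CPM (median 1032). Vldlr (0.38) and Scap (0.21), the SREBP escort, rose as well, so that 4 of 13 in this list rose (30.8%) and 3 fell (23.1%), neither share far from that of all genes.

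The promoters of 3 genes of this pathway that fell are shown because SREBP and the CCAAT-binding factor NF-Y are known to act at such promoters. Each is the 250 bases before the RefSeq start on GRCm38.p6, written 5′ to 3′ on the gene's own strand. Capitals mark matches to CCAAT on either strand (ATTGG on the strand shown) and to TCACNCCAC, a sterol regulatory element, which do not overlap here.
Hmgcs1, chr13:119690101-119690350, plus strand: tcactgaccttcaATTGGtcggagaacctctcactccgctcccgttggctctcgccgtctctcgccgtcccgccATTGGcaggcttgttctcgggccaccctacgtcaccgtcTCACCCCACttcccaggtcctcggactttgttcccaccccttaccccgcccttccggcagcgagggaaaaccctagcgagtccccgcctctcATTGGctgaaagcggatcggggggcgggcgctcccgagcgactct
Idi1, chr13:8885356-8885605, plus strand: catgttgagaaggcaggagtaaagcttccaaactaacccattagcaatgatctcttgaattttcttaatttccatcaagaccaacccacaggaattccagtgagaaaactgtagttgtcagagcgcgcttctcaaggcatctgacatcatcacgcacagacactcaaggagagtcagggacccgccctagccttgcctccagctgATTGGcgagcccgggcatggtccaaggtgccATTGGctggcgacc
Insig1, chr5:28071162-28071411, plus strand: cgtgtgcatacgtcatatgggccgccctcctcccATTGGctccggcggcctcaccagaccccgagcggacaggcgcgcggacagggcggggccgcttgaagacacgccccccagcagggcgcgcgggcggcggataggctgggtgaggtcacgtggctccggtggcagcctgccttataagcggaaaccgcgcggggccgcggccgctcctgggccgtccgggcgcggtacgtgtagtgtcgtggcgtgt
Hmgcs1 holds 3 CCAAT matches, which begin 237, 176 and 45 bases before the start, and 1 sterol regulatory element beginning 137 bases before it. Idi1 holds 2 CCAAT matches, at 45 and 14 bases, and Insig1 holds 1, at 216 bases. CCAAT was found in 14 of the 15 cholesterol enzymes that have a window in the table (93.3%), among them 8 of the 9 that fell (88.9%), and in 37.5% of the 27025 genes with a window. TCACNCCAC was found in 1 of the 15 (6.67%) and in 1.22% of all genes. A match is a description of the letters and not evidence of binding.

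Genes of cholesterol export and the apolipoproteins rose more often than they fell: 8 of 21 LXR targets, efflux genes and apolipoproteins rose (38.1%) and 4 fell (19%). Abca7, a phospholipid exporter whose human gene is known from Alzheimer's disease genetics, rose from 11.6 ± 0.442 to 20.9 ± 3.40 CPM (SD, n = 6 each; log2 0.85, SE 0.09, edgeR adjusted p = 2.87e-07). Clu, clusterin, the other abundant apolipoprotein of astrocytes, ran from 3156 to 3340 CPM (median 3248) in wild type and from 3523 to 4586 CPM (median 4010) in APOE33 and rose by 0.33 on the log2 scale (SE 0.06, edgeR adjusted p = 0.000339). Every APOE33 library lay above every wild-type library in both genes. Pltp, which transfers phospholipids between lipoproteins, rose by 0.51 and Abca1, the main cholesterol exporter to ApoE, by 0.31. Abca1 ranged from 1057 to 1253 CPM (median 1128) in wild type and from 1127 to 1664 CPM (median 1401) in APOE33, with overlap. Among those that fell, Cyp7b1, which hydroxylates oxysterols, went from 22.1 ± 0.53 to 12.9 ± 1.77 CPM (log2 -0.79, SE 0.07, edgeR adjusted p = 2.59e-08). Lpl, lipoprotein lipase, fell by 0.44. Apoc4, beside Apoe, is described with the neighbours of Apoe.

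Of 27 fatty acid and lipid droplet genes 3 rose (11.1%) and 6 fell (22.2%), and 5 rose without APOE33 replicate 2. Elovl6, an elongase of saturated fatty acids, went from 43.0 to 52.5 CPM (median 47.4) in wild type and from 27.4 to 30.6 CPM (median 28.6) in APOE33 (log2 -0.72, SE 0.05, edgeR adjusted p = 1.27e-09). Fabp7, the fatty acid binding protein of immature astrocytes, fell by 0.74 on the log2 scale (SE 0.08, edgeR adjusted p = 4.73e-07), and Cd36, a fatty acid and lipoprotein scavenger receptor, by 2.43 on the log2 scale (SE 0.31, edgeR adjusted p = 3.01e-06), at a low level of 1.71 CPM in wild type.

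Lysosomal genes were often higher in APOE33, with 20 of 36 rising (55.6%, against 20.1% of all genes) and 2 falling, and a list median of 0.16. Lamp1, a main protein of the lysosomal membrane, ran from 798 to 880.3 CPM (median 837) in wild type and from 1013 to 1086 CPM (median 1057) in APOE33 (log2 0.33, SE 0.04, edgeR adjusted p = 3.77e-07), with no overlap. Ctsh, a cathepsin, went from 12.04 ± 2.14 to 22.6 ± 3.02 CPM (log2 0.88, SE 0.10, edgeR adjusted p = 8.71e-07). Ctsb, one of the most abundant cathepsins, rose by 0.50, Scarb2, the receptor that carries glucocerebrosidase to lysosomes, by 0.31, and Npc1, which releases cholesterol from lysosomes, by 0.24. Ctsb ranged from 2010 to 2274 CPM (median 2117) in wild type and from 2117 to 3642 CPM (median 3084) in APOE33, highest in replicates 4, 6 and 5. The 2 that fell were Atp6v0d2, a proton pump subunit, and Gusb. Counts were 14 rising and 2 falling without the libraries of high even share, 19 and 0 with APOE33 replicates 4 and 6 alone, and 14 and 2 under upper-quartile scaling.

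**Figure D2:**
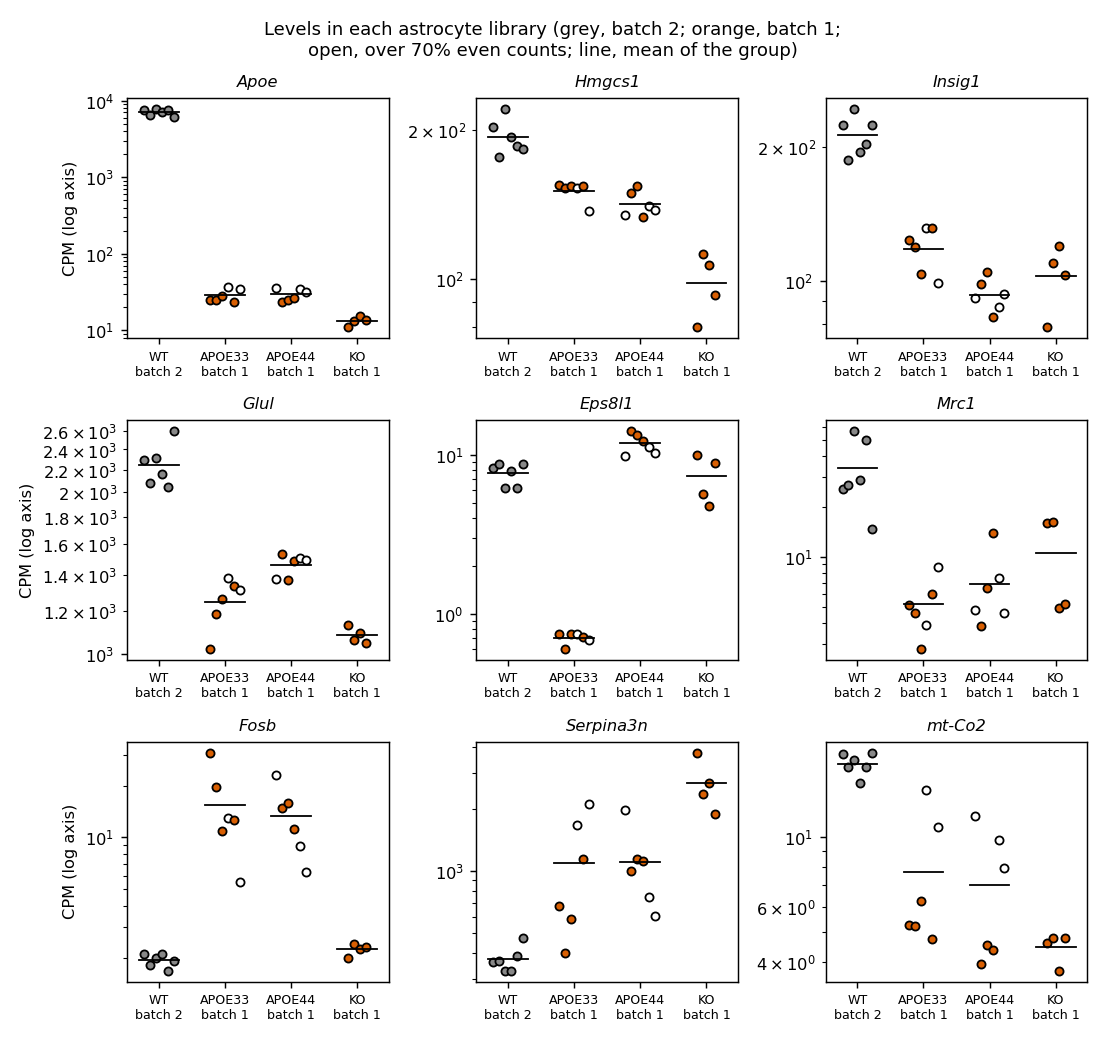
Each panel gives a gene's level in CPM (log axis) in every astrocyte library, by genotype with its batch tag on the x axis; lines are group means, and open points are libraries in which over 70% of counts from 1 to 9 were even. Apoe, Hmgcs1, Insig1, Glul and Mrc1 were lower in all 6 APOE33 libraries than in all 6 wild-type libraries, Eps8l1 was low in APOE33 alone among the 4 genotypes, and Serpina3n and mt-Co2 differed between the open and the filled APOE33 points.

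A list of genes of transmitter uptake, transmitter receptors and potassium handling was more often called lower in APOE33: 11 of 27 fell (40.7%) and 5 rose (18.5%). Receptor genes were on both sides, with Gria1 and Gria2 lower and Gabra2 and Grm3 higher. Glul, glutamine synthetase, which turns glutamate into glutamine, ran from 2041 to 2598 CPM (median 2228) in wild type and from 1022 to 1384 CPM (median 1290) in APOE33, and fell by 0.85 on the log2 scale (SE 0.07, edgeR adjusted p = 7.31e-09). Slc1a2, the main glutamate transporter of the forebrain, ran from 403 to 545 CPM (median 448) and from 184 to 341 CPM (median 278) and fell by 0.75 on the log2 scale (SE 0.14, edgeR adjusted p = 0.000367). Neither gene's groups overlapped. The AMPA receptor subunit Gria1 fell from 308 ± 49.6 to 132 ± 17.9 CPM (log2 -1.25, SE 0.14, edgeR adjusted p = 1.37e-06), its partner Gria2 fell by 0.84, and Atp1b2, a sodium pump subunit, fell by 0.69 on the log2 scale (SE 0.10, edgeR adjusted p = 7.75e-06). Gjb6, connexin 30 of the gap junctions between astrocytes, was low in both groups, at 7.25 ± 1.498 and 1.73 ± 0.905 CPM (log2 -2.09, SE 0.31, edgeR adjusted p = 2.45e-05). Those that rose were Gabra2 (1.72), Grm3 (1.07), Slc38a3 (0.41), Slc38a2 (0.19) and Glud1 (0.19). Of the 20 astrocyte markers, which share 8 genes with this list, 8 fell and 5 rose (3 without APOE33 replicate 4). S100b rose the most, from 4.23 to 10.00 CPM (log2 1.24, SE 0.19, edgeR adjusted p = 3.92e-05), and Gfap rose by 0.37 on the log2 scale (SE 0.12, edgeR adjusted p = 0.0211), with APOE33 replicate 2 (4494 CPM) below every wild-type library.

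Of 44 chemokines, cytokines and growth factors tested, 18 fell (40.9%, against 18.9% of all genes), 24 were not called and 2 rose, Pdgfa (0.49) and Bmp4 (0.44). Fgf2, a mitogen for astrocytes and neural stem cells, ran from 249 to 276 CPM (median 258) in wild type and from 127 to 170.5 CPM (median 141) in APOE33 (log2 -0.85, SE 0.07, edgeR adjusted p = 1.07e-08); it overlaps Nudt6 on the other strand, and the counting is not stated to use strand. Mdk, the growth factor midkine, fell by 1.63 on the log2 scale (SE 0.15, edgeR adjusted p = 3.56e-08) and its relative Ptn by 1.01. Vegfa, the main angiogenic factor, fell from 40.5 ± 2.92 to 22.2 ± 2.19 CPM (log2 -0.87, SE 0.09, edgeR adjusted p = 1.27e-07). Edn3, an endothelin, is in no list and was one of the genes of smallest adjusted p: it ran from 26.4 to 42.5 CPM (median 33.8) and from 6.26 to 10.9 CPM (median 8.32) (log2 -2.08, SE 0.10, edgeR adjusted p = 3.80e-12). The groups did not overlap in these 5 genes, which were picked by small adjusted p or, for Ptn, after values were seen. Ccl6 and Ccl9, chemokines of macrophages, fell by 3.53 and 1.90 and are taken up with the macrophage markers.

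Among complement and phagocytosis genes 8 of 30 rose (26.7%) and 5 fell (16.7%), neither share far from that of all genes. Called or not, 10 of the 30 differences were positive and 20 negative, with a list median of -0.08. Gas6, the ligand that bridges dying cells to TAM receptors, fell from 352 ± 22.98 to 183 ± 9.33 CPM (log2 -0.94, SE 0.07, edgeR adjusted p = 4.56e-09), while Tyro3, one of those receptors, rose by 0.58 on the log2 scale (SE 0.09, edgeR adjusted p = 1.73e-05). Complement component C4b rose from 138 to 226 CPM (log2 0.70, SE 0.17, edgeR adjusted p = 0.00247). The factor I gene Cfi rose by 2.19, and its level divided APOE33: replicates 4, 5 and 6 stood at 1.03, 0.909 and 1.23 CPM and replicates 1, 2 and 3 at 0.0869, 0.168 and 0.219, of which only replicate 3 exceeded the wild-type range of 0.0669 to 0.2. Without the 5 libraries of high even share 4 members of the list rose, and 5 rose without wild-type replicate 6, APOE33 replicate 5 or APOE33 replicate 6. Megf10, an engulfment receptor by which astrocytes remove synapses, fell by 0.68 on the log2 scale (SE 0.07, edgeR adjusted p = 1.05e-07). It also counts among the 20 astrocyte factors acting on synapses, of which 6 fell and 4 rose, with Gpc6, which recruits AMPA receptors, down by 0.62 and the adhesion protein Nlgn2 up by 0.36. Thbs4, a thrombospondin, had no count in any APOE33 library and 0.112 CPM on average in wild type, too low for a fold to be given here.

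The extracellular matrix changed in both directions. Of 33 collagen chains 6 rose and 7 fell, and of 55 matrix glycoproteins and proteoglycans 14 rose and 10 fell, shares near those of all genes. Tnr, tenascin-R of perineuronal nets, ran from 8.94 to 12.1 CPM (median 10.5) in wild type and from 35.5 to 52.3 CPM (median 38.4) in APOE33 (log2 1.93, SE 0.16, edgeR adjusted p = 4.21e-08), with APOE44 at 62.3 and KO at 22.8 CPM. Hapln1, a link protein that ties hyaluronan to proteoglycans, rose by 1.67. Lamb2, a laminin chain, rose by 0.52 on the log2 scale (SE 0.06, edgeR adjusted p = 3.05e-07) and the collagen IV chains Col4a1 and Col4a2 by 0.59 and 0.34. Omd, osteomodulin, a small leucine-rich proteoglycan, went from 44.0 ± 4.33 to 102 ± 8.92 CPM (log2 1.20, SE 0.09, edgeR adjusted p = 7.31e-09), the highest mean of the 4 genotypes (APOE44 73.5 and KO 80.6 CPM). Postn, periostin, rose by 2.57 on the log2 scale (SE 0.80, edgeR adjusted p = 0.016) but overlapped: replicates 1, 2, 3 and 5 stood at 4.07 to 24.6 CPM, and replicates 4 and 6 at 0.814 and 1.33, within the wild-type range of 0.312 to 1.54. Among those that fell, Col9a3 went from 15.8 ± 2.61 to 4.62 ± 0.811 CPM (log2 -1.78, SE 0.12, edgeR adjusted p = 7.97e-10). Nid1, nidogen of basement membranes, fell by 0.96 and Bcan, brevican of perineuronal nets, by 0.39, neither with overlap. Col2a1 fell by 1.49, Col8a2 by 1.57 and Igfbp5, which binds insulin-like growth factors in the matrix, by 0.80. Without wild-type replicate 5, 6 of the glycoproteins fell. The regulators of matrix turnover had 10 of 36 up and 11 down (7 down without wild-type replicate 1): Timp2, an inhibitor of metalloproteases (log2 0.59, SE 0.06, edgeR adjusted p = 3.19e-07), and Mmp14, a membrane-bound metalloprotease (log2 0.47, SE 0.05, edgeR adjusted p = 3.46e-07), rose, and Timp4 (log2 -2.31, SE 0.25, edgeR adjusted p = 1.42e-06), Lox (-1.10) and Adamts1 (-0.51) fell. Timp4 overlaps Syn2 on the opposite strand, and since the counting is not stated to use strand their reads cannot be told apart where they overlap. Of 13 markers of fibroblasts and mural cells, Col1a1 among them, 7 fell as well, and their part in the matrix result was not tested. The summed level of that list was 404 to 572 CPM in wild type and 344 to 444 in APOE33, most of it from Acta2. In a bulk culture fewer cells of a type and less RNA per cell cannot be told apart.

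Genes known from reactive astrocytes were called lower more often than higher, 13 of 37 (35.1%) against 4 (10.8%). The list as a whole lay on neither side, with 19 positive and 18 negative differences and a median of 0.0005. Fkbp5, a target of glucocorticoids, fell from 264 ± 23.8 to 191 ± 8.43 CPM (log2 -0.48, SE 0.06, edgeR adjusted p = 9.54e-07), and B3gnt5 and Ptx3 fell by 0.49 and 0.65. The acute-phase protease inhibitor Serpina3n, the most widely used of these markers, went the other way: from 327 to 471 CPM (median 364) in wild type and from 398 to 2100 CPM (median 909.5) in APOE33 (log2 1.59, SE 0.36, edgeR adjusted p = 0.0017). Its highest values were those of replicates 4 and 6 (1678 and 2100 CPM), and replicate 2, at 398 CPM, lay inside the wild-type range. With APOE33 replicates 4 and 6 alone 4 of the 37 rose and 6 fell; without them and the like APOE44 libraries 4 rose and 12 fell.

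The type I interferon response varied widely between libraries of 1 group. Of 36 genes 7 rose (19.4%, near the 20.1% of all genes) and 1 fell, with a list median of 0.50. Isg15, an antiviral modifier, ran from 1.61 to 11.2 CPM (median 4.56) in wild type and from 4.04 to 35.9 CPM (median 14.1) in APOE33 (log2 1.37, SE 0.53, edgeR adjusted p = 0.0483). Replicates 1, 2 and 4 of APOE33 were the highest (27.3, 35.9 and 19.8 CPM) and replicate 6 stood at 4.04 CPM, below the wild-type replicate 3, at 11.2. Irf7, which drives the response, had the same order of highest libraries, with 29.6, 32.1 and 21.1 CPM in replicates 1, 2 and 4. Ifi27 rose by 1.16 on the log2 scale (SE 0.28, edgeR adjusted p = 0.00303), also with overlap, and Ifit2 fell by 0.28 on the log2 scale (SE 0.07, edgeR adjusted p = 0.00212). With APOE33 replicates 4 and 6 alone no interferon gene rose, and 2 rose without wild-type replicate 1, 4 or 6 or without APOE33 replicate 1 or 2 (9 without APOE33 replicate 5). Under upper-quartile scaling 3 rose, also against 1 that fell. Of 23 antigen presentation genes 6 rose (26.1%, not far from the 20.1% of all genes) and none fell (2 fell under upper-quartile scaling). Differences were positive in 12 members and negative in 11, with a list median of 0.05. Those that rose included Tapbp, tapasin of the peptide loading complex (log2 0.57, SE 0.06, edgeR adjusted p = 4.97e-07), the peptide transporter gene Tap2 (log2 0.50, SE 0.06, edgeR adjusted p = 2.74e-06) and H2-DMa (log2 0.75, SE 0.09, edgeR adjusted p = 1.50e-06), all without overlap.

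Immediate early genes, which cells induce within minutes of a stimulus, showed some of the largest rises. Of 28 tested 8 rose (28.6%) and 5 fell (17.9%). Fosb, a partner of Jun in AP-1, stood at 31.0, 19.7, 10.9, 12.95, 12.6 and 5.48 CPM in APOE33 replicates 1 to 6 and at 1.68 to 2.11 in wild type, a rise of 2.96 on the log2 scale (SE 0.36, edgeR adjusted p = 4.06e-06). APOE44 stood at 13.4 ± 5.95 CPM (SD, n = 6) and KO at 2.23 ± 0.174 (SD, n = 4), near wild type. Fos, the founding member of the family, ran from 25.6 to 39.0 CPM (median 29.7) in wild type and from 39.0 to 244 CPM (median 86.3) in APOE33 (log2 1.77, SE 0.40, edgeR adjusted p = 0.00185), the groups meeting at 39.0 CPM. Egr1 rose by 1.62, Ier2 by 1.66 on the log2 scale (SE 0.27, edgeR adjusted p = 7.89e-05) and Junb by 1.36. APOE33 replicate 1 was the highest and replicate 6 the lowest library in Fosb, Fos, Egr1 and Ier2, and replicate 6 stood at 37.1 CPM of Egr1 where wild type ran from 33.8 to 46.3. Others fell: Nr4a3, an orphan nuclear receptor, went from 4.95 ± 0.464 to 2.22 ± 0.62 CPM (log2 -1.18, SE 0.15, edgeR adjusted p = 3.43e-06), and Npas4 (-1.22), Dusp6 (-0.94), Fosl1 (-0.42) and Myc (-0.35) were lower too. The list's median was 0.20 in APOE33, 0.09 in APOE44 and -0.72 in KO against the same wild-type libraries. Fosb also lies 0.393 Mb from Apoe, inside the region around the edited gene.

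The promoters of 3 of the genes that rose are shown because the cAMP response element is a known route by which this class is induced. Each is the 250 bases before the RefSeq start on GRCm38.p6, 5′ to 3′ on the gene's strand; capitals mark TGACG, the core of that element, searched on both strands, and TATAAA in Fos.
Fosb, chr7:19310046-19310295, minus strand: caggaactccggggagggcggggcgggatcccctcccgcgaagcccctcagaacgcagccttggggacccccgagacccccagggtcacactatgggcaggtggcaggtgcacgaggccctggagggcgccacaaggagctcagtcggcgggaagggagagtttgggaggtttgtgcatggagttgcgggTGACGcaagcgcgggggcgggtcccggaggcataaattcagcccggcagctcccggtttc
Fos, chr12:85473640-85473889, plus strand: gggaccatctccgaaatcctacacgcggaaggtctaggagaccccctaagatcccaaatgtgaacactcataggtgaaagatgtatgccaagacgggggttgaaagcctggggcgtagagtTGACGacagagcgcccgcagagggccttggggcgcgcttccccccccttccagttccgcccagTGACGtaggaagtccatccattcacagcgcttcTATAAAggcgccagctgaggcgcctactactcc
Junb, chr8:84978749-84978998, minus strand: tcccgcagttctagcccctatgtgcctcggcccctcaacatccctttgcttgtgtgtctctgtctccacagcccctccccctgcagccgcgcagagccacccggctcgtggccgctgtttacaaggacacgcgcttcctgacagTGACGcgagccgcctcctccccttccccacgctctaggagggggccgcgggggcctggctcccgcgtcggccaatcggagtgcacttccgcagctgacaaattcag
The core begins 60 bases before the start of Fosb, 129 and 66 before that of Fos and 106 before that of Junb. It was found, on either strand, in 14 of 22 immediate early genes with a window (63.6%), in 3 of the 6 of these that rose, in 2 of the 3 that fell and in 19.8% of all 27025 genes. The full element TGACGTCA, which contains the core, was found in 2 of the 22 and in 1.77% of all genes, and the CArG box, the site of serum response factor, in 13.6% and 1.62%. None of the 6 that rose holds the full element or the CArG box in this window.

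Circadian clock genes fell more often than they rose, 7 of 20 (35%) against 3 (15%). Arntl, which encodes the activator BMAL1, went from 15.4 ± 0.755 to 21.8 ± 1.28 CPM (log2 0.48, SE 0.04, edgeR adjusted p = 1.51e-08), and Clock and Nfil3 rose by 0.32 and 0.39. Nr1d2, a repressor of Arntl, fell from 158 ± 9.12 to 103.4 ± 7.41 CPM (log2 -0.61, SE 0.06, edgeR adjusted p = 5.74e-08), and Rora (-0.65), Ciart (-0.63), Per3 (-0.49), Per2 (-0.41), Dbp (-0.32) and Bhlhe41 (-0.27) fell too. The activator and its repressor thus differed in opposite directions, each without overlap.

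Of 44 nuclear genes of oxidative phosphorylation 15 rose (34.1%) and 2 fell, led by Cox6a1 (log2 0.43, SE 0.05, edgeR adjusted p = 2.42e-07), a subunit of cytochrome oxidase; under upper-quartile scaling 10 rose and 10 fell, so the direction depends on the scaling, and 14 rose and 6 fell without APOE33 replicate 4. Of the 15 genes of the mitochondrial genome none rose and 6 fell, by 0.93 to 1.79. These 6 were counted at low levels: mt-Co2 ran from 14.8 to 18.4 CPM (median 17.1) in wild type and from 4.74 to 14.1 CPM (median 5.75) in APOE33, whereas mt-Co1, of similar function, ran from 10650 to 12600 CPM (median 11630) and from 10230 to 12290 CPM (median 11200) and was not called. APOE33 replicates 4 and 6 (14.1 and 10.7 CPM of mt-Co2) were nearer to wild type than the other 4 (4.74 to 6.26), and mt-Co3 was 10.5 and 8.29 CPM in them and 3.31 to 4.44 in the others. With these 2 libraries alone none of the 15 fell, and without the libraries of high even share 6 fell and 1 rose. Mitochondrial genes have near-identical copies in the nuclear genome, so reads can be shared or dropped, and these 6 calls are uncertain. Glycolysis and hypoxia genes split, 5 of 29 up and 6 down, with Pgk1 up by 0.24.

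Stress genes gave a mixed account. NRF2 targets and metallothioneins had 7 of 22 up and 6 down: Nqo1, a quinone reductase used as a readout of NRF2, fell from 20.6 ± 0.429 to 10.9 ± 1.07 CPM (log2 -0.91, SE 0.07, edgeR adjusted p = 2.03e-09), and Gstm1, an abundant glutathione transferase, from 2849 ± 280 to 1472 ± 264 CPM (log2 -0.95, SE 0.12, edgeR adjusted p = 4.27e-06), while Gpx1 (0.47), Hmox1 (0.38) and Fth1 (0.33) rose. Gstm1 has close relatives, Gstm5 among them (-0.47), between which reads could be split. Of 24 unfolded protein and integrated stress genes 6 rose, led by Phgdh and Sesn2 at 0.48 each, and 1 fell (4 and 3 under upper-quartile scaling, 7 and 3 without APOE33 replicate 4). Heat shock genes had 5 of 15 up, with the co-chaperones Bag3 (0.57) and Dnajb1 (0.37), and 3 down, with Hspb1 (-0.82) and Hspd1 (-0.31). For cytosolic ribosomal proteins 15 of 51 rose and 7 fell with TMM, and 7 rose and 12 fell under upper-quartile scaling, with called changes from -0.28 to 0.25. Cell cycle genes were called the least often of the 27 pathway lists, 2 up and 2 down of 38, although 4 rose and 6 fell without APOE33 replicate 2. Replication-dependent histones had 4 up and 3 down of 25, and 1 up without APOE33 replicate 3.

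**Figure D3:**
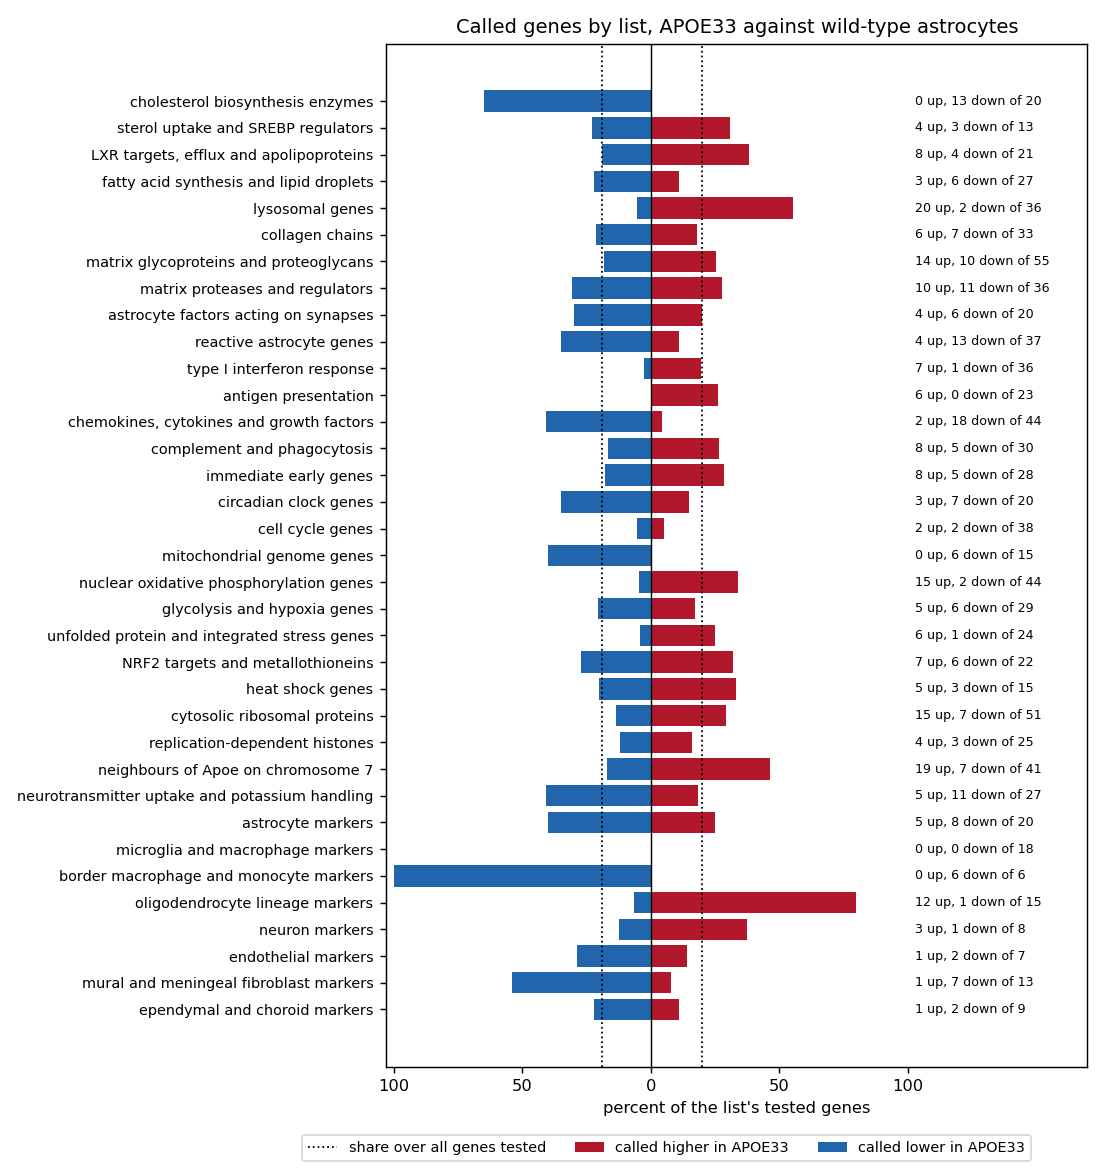
Bars give the percent of each list's tested genes called higher (red, right) or lower (blue, left) in APOE33, for 35 lists; dotted lines are the shares over all genes tested, 20.1% and 18.9%. Cholesterol enzymes (13 of 20 down), lysosomal genes (20 of 36 up), oligodendrocyte markers (12 of 15 up) and border macrophage markers (6 of 6 down) reach farthest past the lines.

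Markers of other cells that could be present in the cultures were measured beside these results. Summed levels of marker lists take in every member, whether or not it passed the filter. They are scaled to the raw library total and not to the TMM-normalised one. Marker transcripts of the macrophages of the brain's borders were lower in APOE33: of 9 marker genes 6 passed the filter and all 6 fell. The summed level of the 9 was 31.2 to 90.9 CPM in wild type and 6.26 to 14.5 CPM in APOE33. Mrc1, the mannose receptor CD206, ran from 14.8 to 56.7 CPM (median 27.8) in wild type and from 2.81 to 8.65 CPM (median 4.88) in APOE33 (log2 -2.72, SE 0.43, edgeR adjusted p = 6.65e-05), and was not called with male libraries only. Lyve1, a hyaluronan receptor of perivascular macrophages, went from 9.20 ± 4.03 to 0.174 ± 0.113 CPM (log2 -5.68, SE 0.70, edgeR adjusted p = 5.00e-06), and Cd163, a haemoglobin scavenger receptor, fell by 6.12. Marco, a scavenger receptor, Fcna, a ficolin, Ccl6 and Cbr2 were 4 of the 10 largest falls by the naming rule, at -5.85, -3.89, -3.53 and -3.04. Wild-type replicates 3 and 5 were the highest in Mrc1, Lyve1, Fcna, Ccl6 and Cbr2, and the groups did not overlap in any of them. By contrast none of 18 microglia and macrophage markers was called, with summed levels of 275 to 815 CPM in wild type and 245 to 882 in APOE33 and a median of -0.45; edgeR without APOE33 replicate 2 called 7 of them lower, and DESeq2 called 2 lower with all libraries.

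Most oligodendrocyte lineage markers were higher. Of 15 tested 12 rose (80%, against 20.1% of all genes) and 1 fell, the list median was 0.98, and the summed level was 169 to 189 CPM in wild type and 250 to 296 in APOE33. Cnp, an enzyme of myelinating cells, ran from 90.3 to 105 CPM (median 99.2) in wild type and from 126 to 184 CPM (median 156) in APOE33 (log2 0.68, SE 0.07, edgeR adjusted p = 1.12e-07). Olig2, a transcription factor of the lineage that some astrocytes also make, rose by 0.61 on the log2 scale (SE 0.11, edgeR adjusted p = 0.000119). Sox10, which is restricted to the lineage, went from 0.0767 to 0.284 CPM (median 0.185) and from 0.538 to 3.17 CPM (median 0.735) (log2 2.63, SE 0.72, edgeR adjusted p = 0.00694), with replicate 2 the highest. Pdgfra, the receptor of oligodendrocyte precursors, stood at 8.03, 23.3, 7.48, 3.34, 3.15 and 4.45 CPM in APOE33 replicates 1 to 6 and at 0.937 to 2.28 in wild type (log2 2.33, SE 0.51, edgeR adjusted p = 0.00143). Mog, a late myelin protein, fell by 1.37 at 0.164 CPM in wild type. With APOE33 replicates 4 and 6 alone 5 of 15 rose, and without the libraries of high even share 12 rose. The list's median against wild type was 0.98 in APOE33, 0.95 in APOE44 and 0.23 in KO.

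Of 13 mural and meningeal fibroblast markers 7 fell and 1 rose: Dcn and Col1a1, matrix genes of fibroblasts, fell by 3.74 and 3.09, from 0.838 ± 0.235 and 2.32 ± 1.66 CPM in wild type, Anpep, a pericyte peptidase, by 2.79 and Myh11, a smooth muscle myosin, by 0.86. The summed level of the list was 404 to 572 CPM in wild type and 344 to 444 in APOE33. Most of it came from Acta2, which fell (259 to 425 CPM in wild type and 183 to 284 in APOE33). Pdgfrb, the next most abundant called member, was the 1 that rose (97.0 to 110 and 113 to 139 CPM). Dcn, Col1a1, Anpep and Myh11 added little to the sum. Of 8 neuron markers 3 rose, with Tubb3 from 1.86 ± 0.473 to 5.26 ± 1.43 CPM (log2 1.52, SE 0.18, edgeR adjusted p = 9.29e-07), and Syt1 fell. Endothelial markers had 1 up and 2 down of 7, and ependymal and choroid markers 1 up and 2 down of 9, with summed levels of 878 to 1050 and 861 to 1110 CPM for the first and 206 to 293 and 282 to 426 CPM for the second. Astrocyte markers summed to 25900 to 28900 CPM in wild type and 21200 to 26400 in APOE33. No marker of the 8 lists that passed the filter was at 0 in all 12 libraries. What part these other cells have in the falls of Marco, Ccl6, Col1a1 or Spp1 and in the rises of Pdgfra or Postn was not tested.

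**Figure D4:**
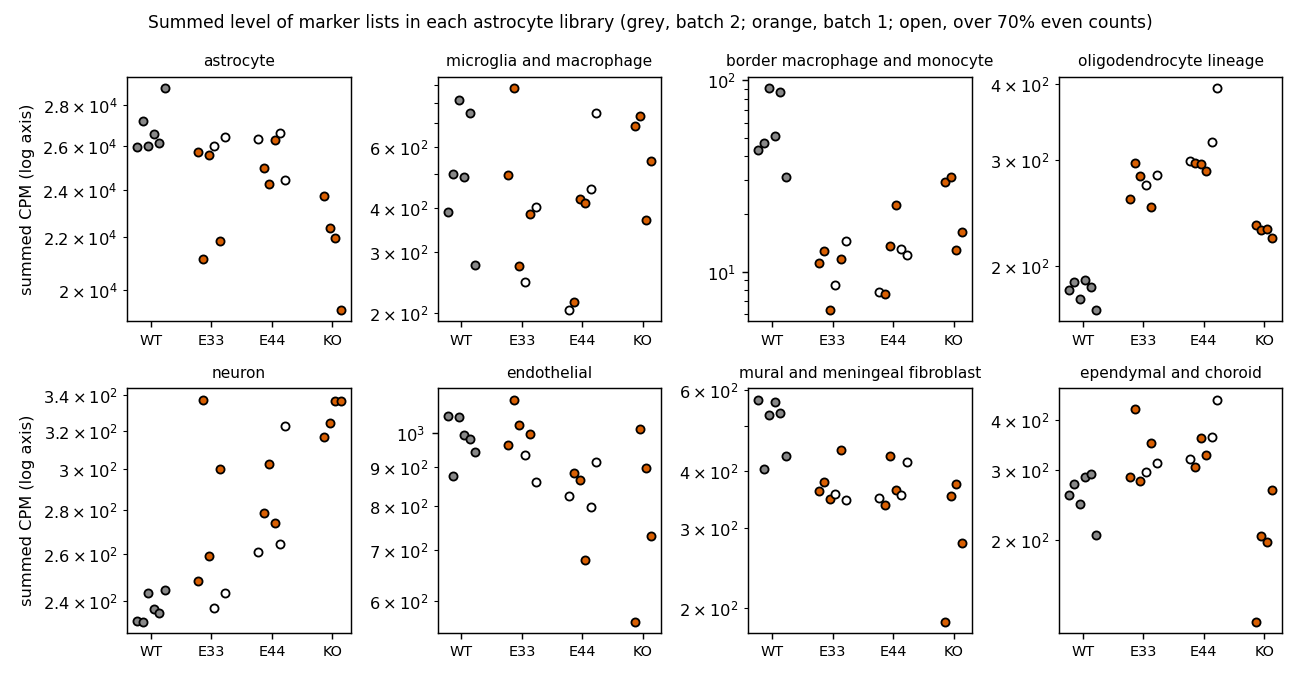
Each panel gives the summed CPM (log axis) of 1 marker list in every astrocyte library by genotype (WT wild type, E33 APOE33, E44 APOE44, KO knock-out); open points are libraries with over 70% even counts. Border macrophage markers lie at 31.2 to 90.9 CPM in wild type and 6.26 to 14.5 in APOE33, and oligodendrocyte markers at 169 to 189 and 250 to 296.

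Genes near Apoe were called more often than genes elsewhere. Within 1 Mb of Apoe 38 of 62 genes tested were called (61.3%, 27 higher and 11 lower) and 21% were called at least 2-fold; from 1 to 5 Mb 57.7% were called, from 5 to 20 Mb 46.6%, farther along chromosome 7 35.1% and on other chromosomes 39%. Of 41 neighbours tested in the list kept for this region 19 rose and 7 fell. Bloc1s3, which serves lysosome-related organelles, lies 0.19 Mb from Apoe and ran from 11.9 to 13.4 CPM (median 12.7) in wild type and from 20.2 to 23.4 CPM (median 22.5) in APOE33 (log2 0.81, SE 0.05, edgeR adjusted p = 7.75e-11). Mill2, an MHC class I-like gene 0.856 Mb away, went from 4.23 ± 0.611 to 12.2 ± 1.14 CPM (log2 1.53, SE 0.08, edgeR adjusted p = 2.70e-11). In both genes all 6 APOE33 libraries exceeded all 6 wild-type libraries. Apoc4, 0.018 Mb from Apoe, fell by 2.20 (0.11 to 0.0279 CPM), and Zfp296, a zinc finger gene 0.119 Mb away, fell by 3.28, from 0.701 ± 0.146 to 0.0778 ± 0.0689 CPM (SD, n = 6 each). Apoc1 (0.29, adjusted p = 0.518 by edgeR) and Tomm40 (0.06, adjusted p = 0.222 by edgeR), the nearest on either side, were not called. The antisense gene Gm16251, 0.225 Mb away, had 41 counts over the 6 wild-type and 894 over the 6 APOE33 libraries. APOE44 and KO lay on the same side of wild type as APOE33 for Bloc1s3 (21.3 and 21.6 CPM), Mill2 (11.2 and 11.9) and Zfp296 (0.0713 and 0.157), whereas Apoc4 stood at 0.0354 in APOE44 and, above wild type, at 0.164 in KO, and Fosb was near wild type in KO.

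**Figure D5:**
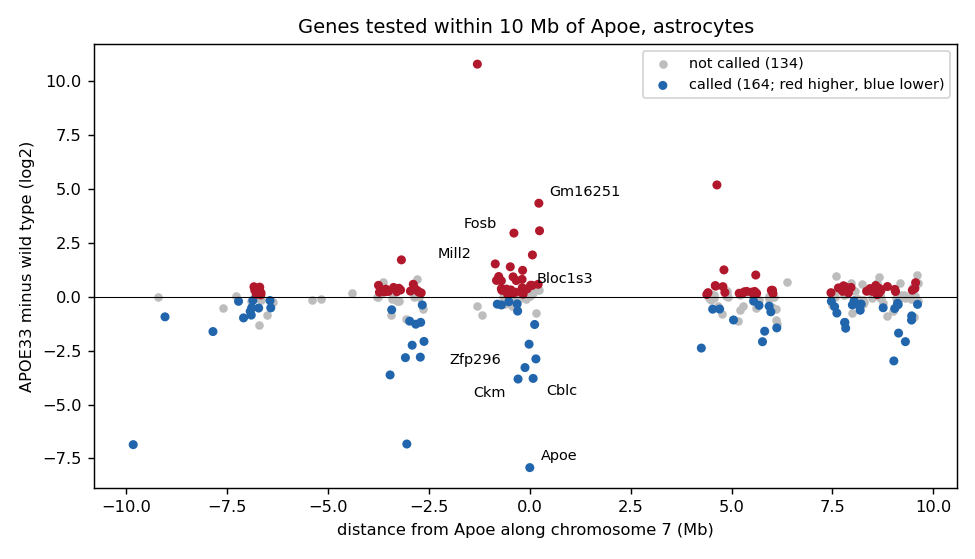
Each point is a gene tested within 10 Mb of Apoe, with its distance from Apoe along chromosome 7 (x axis, Mb) against the log2 difference APOE33 minus wild type (y axis). Called genes are red (higher) or blue (lower); large differences of both signs lie close to Apoe at 0, and the highest point is Gm45104.

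A few differences were all but absolute. Gm45104 and Gm15446 were named after their values were seen. Gm45104, a transcript still to be experimentally verified, on chromosome 7 (18396516 to 18400865, GRCm38), had 7 counts over the 6 wild-type libraries and stood at 19.2 to 25.2 CPM in APOE33 (log2 10.80, SE 0.17, edgeR adjusted p = 1.19e-21), at 22.4 in APOE44 and 22.8 in KO. Gm15446, a predicted protein-coding gene on chromosome 5, ran from 0.877 to 1.22 CPM (median 1.06) in wild type and from 19.9 to 22.3 CPM (median 20.9) in APOE33 (log2 4.29, SE 0.08, edgeR adjusted p = 1.28e-20). In these genes the 3 genotypes of batch 1 had like levels. Eps8l1, an actin regulator on chromosome 7 (4460674 to 4480487), did not follow that pattern: it ran from 6.14 to 8.76 CPM (median 8.08) in wild type and from 0.602 to 0.752 CPM (median 0.73) in APOE33 (log2 -3.45, SE 0.17, edgeR adjusted p = 4.15e-12), and stood at 11.8 ± 1.71 CPM (SD, n = 6) in APOE44 and 7.30 ± 2.45 CPM (SD, n = 4) in KO. All 6 APOE33 libraries were below the lowest library of every other astrocyte genotype, those of the same batch included. As3mt, an arsenic methyltransferase, was lower by 2.22 (14.4 ± 1.04 against 3.10 ± 0.637 CPM, SD, n = 6 each), with KO between at 6.62 CPM. Fbxl5, a sensor of iron, fell by 0.79 on the log2 scale (SE 0.04, edgeR adjusted p = 1.96e-11) and Marveld1 by 1.10 on the log2 scale (SE 0.06, edgeR adjusted p = 2.04e-11), both with narrow spreads.

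Several of the largest rises by the naming rule rested on few libraries. Crym, which binds thyroid hormone, stood at 24.3 and 9.51 CPM in APOE33 replicates 5 and 2, at 0.83 to 2.38 in the other 4 and at 0.336 to 0.636 in wild type (log2 3.37, SE 0.92, edgeR adjusted p = 0.00728). Vwa5b1 (2.99, edgeR adjusted p = 0.0476) was high in the same 2 replicates, and its call was lost on leaving out either of them or any of 5 wild-type libraries (edgeR adjusted p up to 0.137). Kcna1, a potassium channel (log2 2.61, SE 0.63, edgeR adjusted p = 0.00308), was highest in replicate 2, at 14.9 CPM. Sphkap, an anchor of protein kinase A, was more even and ran from 0.432 to 0.821 CPM (median 0.582) in wild type and from 1.59 to 4.03 CPM (median 2.58) in APOE33 (log2 2.17, SE 0.28, edgeR adjusted p = 3.40e-06). CT010467.1, annotated as ribosomal RNA, stood at 372 to 542 CPM in wild type, at 4877 to 6601 in APOE33 replicates 1, 2, 3 and 5 and at 1026 and 744 in replicates 4 and 6. Lars2, the mitochondrial leucyl-tRNA synthetase, and Rn7sk, a nuclear RNA that restrains transcription elongation, were likewise lower in replicates 4 and 6 than in the other 4, with Rn7sk at 3.78 and 2.01 CPM in replicates 4 and 6 and from 2.53 to 4.01 CPM (median 2.86) in wild type. With APOE33 replicates 4 and 6 alone none of Crym, Vwa5b1, Kcna1, Pdgfra, Postn, CT010467.1, Lars2 or Rn7sk was called, whereas Fosb and Sphkap were.

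The kind of gene and its level went with the direction. Of 15216 protein-coding genes 4069 rose and 2568 fell (43.6% called, median 0.03), while of 1809 processed pseudogenes 31 rose and 553 fell (median -0.57, and 391 were at least 2-fold lower). The pseudogene median was -0.71 for the 1135 with a mean log2 CPM under -2 and -0.16 for the 26 at 2 or more. Protein-coding genes at those levels had medians of -0.175 and 0.05. Of 967 long intergenic RNAs 42 rose and 256 fell, and of 1072 antisense genes 52 rose and 226 fell. Processed pseudogenes took 0.109% to 0.116% of counts in wild type and 0.0749% to 0.0916% in APOE33, without overlap, and their medians against wild type were -0.61 in APOE44 and -0.84 in KO. Pseudogenes that copy ribosomal protein genes fell in 46 of 113 cases (40.7%). A pseudogene shares reads with its parent, so these counts depend on how reads that match both were assigned. Protein-coding genes also shifted with base composition: the median difference rose from -0.06 in the fifth of lowest GC content to 0.15 in the fifth of highest. A fit with a GC offset called 7605 genes. That offset was made from these same genes and so flattens the trend by construction, with the 5 medians at 0.04 to 0.07.

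The same contrast in microglia, with the same coincidence of genotype and batch, called 8634 genes in a joint fit of both cell types. The difference between astrocytes and microglia was itself called for 5662 of 22498 genes (25.2%), 3475 higher and 2187 lower in astrocytes. On the scale of the joint fit Glul stood at log2 -0.83 in astrocytes and 0.52 in microglia, where it went from 921 ± 86.9 to 1307 ± 142.8 CPM (SD, n = 6 each), a difference of -1.35 (SE 0.09, edgeR adjusted p = 3.35e-13). Anxa2, a membrane-binding protein, stood at log2 0.26 in astrocytes and -1.60 in microglia (difference 1.86, edgeR adjusted p = 3.19e-15). Camk2n1 and Camkk1, an inhibitor and an activator in calcium signalling, stood at -0.42 and -0.29 in astrocytes and at 3.33 and 2.45 in microglia. Sh2b2, an adaptor of receptor kinases, stood at -1.14 in astrocytes and 0.81 in microglia. Bloc1s3, the neighbour of Apoe, stood at 0.83 in astrocytes and -0.11 in microglia (difference 0.94, edgeR adjusted p = 8.53e-15).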

How the data were processed

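The 44 RNA libraries of cultured mouse astrocytes and microglia were sequenced as pairs of 150-base reads, per the labels' protocols. The authors deposited raw read counts per gene in 1 table. STAR 2.5.3a, featureCounts, edgeR 3.26.8 and DESeq2 3.14 are named in the submitters' processing notes, where the only build named is hg38. Whether counting used strand is not given in the sources used here. Gene identifiers matched GENCODE M21 (GRCm38) for 54079 of 54146 rows, and 67 rows did not match.

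Genes were filtered with filterByExpr, scaled by TMM and tested with edgeR 4.0.16 (robust quasi-likelihood fit over 22 astrocyte libraries, sex as covariate, contrast APOE33 minus wild type). Standard errors were the log2 difference divided by the square root of F. The stricter call also required a 2-fold difference. The difference between cell types was an interaction contrast over all 44 libraries. The fit was also run on simulated counts. These held no batch difference and no excess of even counts, so that run cannot speak to either.

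Named genes were Apoe, the 10 largest rises and 10 largest falls among called genes with a mean log2 CPM of at least 1, the 8 of smallest adjusted p, up to 3 called members of each of 35 gene lists and 6 interaction genes. Apart from list members, symbols of Gm, AC or AL plus digits or ending in Rik, Xist, Tsix and chromosome Y were left out. Other clone names, such as CT010467.1, and genes of chromosome X were not. The members and lists were chosen with earlier results of these data known. Others were named after their values were seen. Promoters came from the RefSeq table on GRCm38.p6. Alternatives were DESeq2 1.42.0, other scalings, filters and covariates, 1 sex, a replicate block, a GC offset, each replicate left out and, chosen after seeing the data, the libraries of high even share left out or alone. Some genes are not reported here.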

Additional observations from a re-analysis of the deposited data

Results flagged for a closer look

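Over the genes named, 260 groups of 6 libraries were tested for a library standing away from the other 5, and 17 had one, 7 in wild type and 10 in APOE33. Chance alone flags about 1 group in 20. In wild type, replicate 6 was lowest for Postn (0.312 CPM, others 1.14 to 1.54) and Ptx3 (2.91 CPM) and highest for Atp1b2 (4233 CPM) and Mobp (0.120 CPM). Replicate 3 was highest for Cmpk2 (43.2 CPM, others 27.0 to 32.0) and Anpep (2.91 CPM), and replicate 1 was highest for Rn7sk (4.01 CPM).

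In APOE33, replicate 2 was highest for Vwa5b1 (17.8 CPM), Kcna1 (14.9 CPM) and Pdgfra (23.3 CPM, others 3.15 to 8.03) and lowest for Anxa2 (203.8 CPM). Replicate 6 was lowest for Idi1 (13.02 CPM), Cox7c (70.8 CPM, others 86.0 to 89.1) and Hspd1 (174.8 CPM). Replicate 5 was highest for Crym (24.3 CPM, others 0.830 to 9.51), replicate 3 for Fabp7 (39.1 CPM) and replicate 4 for Pecam1 (0.159 CPM).

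The difference APOE33 minus wild type itself differed between astrocytes and microglia for 5662 genes by edgeR's interaction test. The 6 of smallest adjusted p had astrocyte minus microglia values of 1.86 for Anxa2, 0.94 for Bloc1s3, -3.76 for Camk2n1, -2.74 for Camkk1, -1.35 for Glul and -1.94 for Sh2b2. Genotype and batch coincide in both cell types.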

How the results depend on the processing

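Counts of called genes stayed within 1.5 times those reported under DESeq2 (8748 called), RLE scaling, upper-quartile scaling, no low-count filter, 12 libraries only, no sex covariate and a GC offset. With female libraries only, 3814 genes were called (2226 higher, 1588 lower), of which 879 at least 2-fold (223 higher, 656 lower). With male libraries only there were 4602 (2597 and 2005), of which 823 at least 2-fold (203 and 620). These fits hold fewer libraries. Requiring a CPM of at least 1 in 6 libraries left 413 at least 2-fold (136 higher, 277 lower), and protein-coding genes alone, chosen after seeing the data, 760 with 494 lower; both test fewer genes. Leaving out 1 replicate gave 7534 to 8446 called (3933 to 4347 higher, 3574 to 4099 lower), 1340 to 1582 at least 2-fold (298 to 355 higher, 1017 to 1227 lower), and 5229 to 5806 for the difference between cell types.

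Of 121 named genes, 22 lost their call with male libraries only (Mrc1, Postn, Lars2, CT010467.1 and Ifi27 among them), 18 with female libraries only (Postn and Pdgfra among them) and 18 when APOE33 was represented by replicates 4 and 6, and Vwa5b1 (-0.0743), Postn (-0.0961) and Rn7sk (-0.0532) turned direction with edgeR adjusted p of 0.952 or more; the cause was not tested. Leaving out 1 library ended the calls of Vwa5b1 (7 libraries), Pecam1 (9 libraries), Rn7sk and Mcm6 (APOE33 replicate 3).

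Same-numbered APOE33 and wild-type libraries had deviations correlated at -0.186 to 0.176, and differently numbered ones at -0.198 to 0.291. With 6 libraries per group these values cannot decide whether the numbers pair the samples, and the sources used here do not state that they do. With the number as a replicate block 7849 genes were called (4047 higher, 3802 lower), 1435 at least 2-fold, and 5259 for the difference between cell types; Vwa5b1, Postn, Rn7sk and Pecam1 were not called in that fit, and the calls of the other 117 named genes did not change. With at least 83239599 counts per library, counting error would matter mainly for genes of a few counts, such as Thbs4 and Apoc4, if each count were an independent read. Even values were the majority among counts from 1 to 9 in every astrocyte library (62.4% to 75.5%). Whether counts are independent reads was not tested, so counting error may reach further.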
